A study of Mus musculus with 282 samples.

Results

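The cells described here are unstimulated granulocyte-monocyte progenitors (GMPs), the cells whose Cytokine entry is blank in the authors' deposited cell tables of both experiments. They number 60 of the 238 cells in those tables, which in turn cover 238 of the 282 samples of the series, and each sample is 1 cell. The other 178 cells of the tables had TNF, a cytokine that activates the transcription factor NfkB, as their entry. All cells, unstimulated or TNF, carried the same alleles and had the same history: they came from the bone marrow of male and female GFP-p65/H2BmCherry mice aged 12 to 19 weeks, homozygous for GFP-p65 and heterozygous for H2BmCherry. GFP-p65 is a fluorescent form of an NfkB subunit, and H2BmCherry is a fluorescent histone that shows nuclei. GMPs were kept for 8 h under a confocal microscope, picked singly with a micromanipulator and profiled by Smart-Seq2, which amplifies polyadenylated RNA of 1 cell. Which animal gave which cell, how many animals were used, and by which surface markers the GMPs were sorted is not stated in the labels or tables read for this work. The tables do not say what the medium of blank cells held beyond the missing cytokine.

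GMPs are bone marrow progenitors that give rise to monocytes and neutrophils, and populations sorted under this name can also hold cells that give rise to eosinophils, basophils or mast cells. Lineage priming is the low or graded expression of genes of a mature lineage in a progenitor that has not yet matured. A progenitor can express genes of several lineages together, or genes of 1 lineage while those of another are low, and co-expression in single cells separates these cases where bulk RNA cannot. The question of these cells is which marker genes they held before any TNF, and which they held together.

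5 marker genes were given for this purpose by identifier: ENSMUSG00000009350 (marker A), ENSMUSG00000020125 (marker B), ENSMUSG00000041515 (marker C), ENSMUSG00000024621 (marker D) and ENSMUSG00000015053 (marker E). The count tables do not pair identifiers with gene symbols, and 0 of their 55450 identifiers matched the reference gene table. The markers are therefore given by letter, without a lineage or a function, and the name GMP, which rests on the labels, was not checked against named genes. Levels are in CPM, the reads of a gene over all gene reads of that cell, scaled to a total shared by all cells. CPM does not correct for gene length, so a level of a marker is compared only with the same marker in other cells. A cell is counted as holding a marker at 10 CPM or more, and intervals are exact 95% binomial (Clopper-Pearson) intervals over cells. They cover counting error only and take cells as independent, which cells of a shared plate or animal may not be.

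The unstimulated cells lay on 3 plates: 16 in an experiment of 1 plate, and 24 on Plate1 and 20 on Plate2 of an experiment of 2 plates. Their libraries held 297165 to 2971468 reads, with a median of 1384960, over 3836 to 10763 detected genes. 4 cells had fewer than 8000 detected genes, namely cells 69 and 95 of the 1-plate experiment and cells 14 and 24 of Plate2, and cell 14 stood apart with 3836 genes and 23.6% of its reads in spike-in RNA. Spike-ins took 0.295% of the unstimulated cells' reads in the 1-plate experiment, and 1.33% in the other. No 2 cells of the tables had identical counts (0 pairs). By the authors' cell cycle calls, 17 unstimulated cells were in G1, 8 in S and 35 in G2M. By their NfkB response calls, 47 were non-responsive, 5 oscillatory, 2 transient, 3 unclear and 3 outliers. Results that 1 plate, the 1-plate experiment or the 4 cells with few genes changed are given with and without them.

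Markers A and B were held by nearly every unstimulated cell, in amounts that differed many-fold between cells. Marker A was at 10 CPM or more in 60 of 60 cells (100%, interval 94.04 to 100%). Its lowest level was 121.9 CPM, its median 1615 CPM and its highest 7077 CPM. Marker B was at 10 CPM or more in 59 of 60 cells (98.3%, 91.1 to 100%), with a lowest level of 0, a median of 1621 CPM and a highest level of 10864 CPM. The exception was cell 67 of the 1-plate experiment, which had 0 reads of marker B in 875549 reads. Neither marker thus split the cells into holders and non-holders, and no cell lay near the threshold: the lowest level above it was 121.9 CPM for A and 44.9 CPM for B. Plates differed in level, with median A of 2084 CPM in the 1-plate experiment, 1718 CPM on Plate1 and 750 CPM on Plate2. Median B was 1416, 1959 and 798 CPM in the same order. Plate2 was the lowest for both, and its ranges overlapped those of the other plates.

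**Figure D1:**
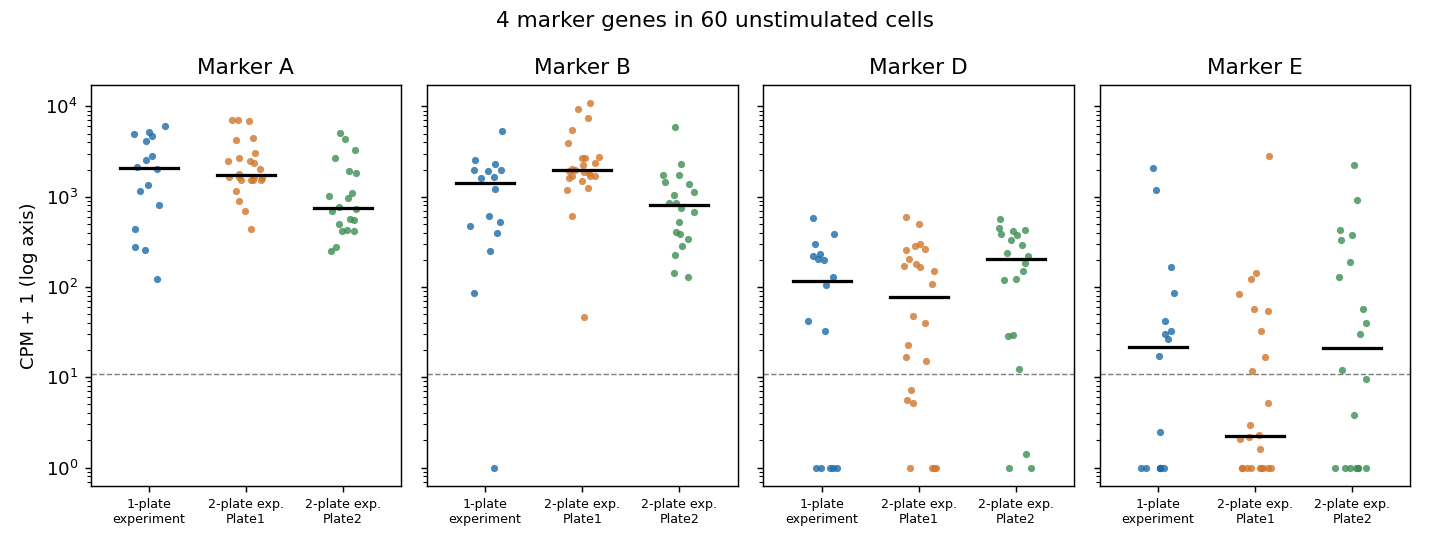
Level of markers A, B, D and E in each of the 60 unstimulated cells (CPM + 1, log axis), with 1 point per cell, columns for the 3 plates, a black bar at the plate's median and a dashed line at 10 CPM. A and B lie above the line in all cells but 1, while D and E lie on both sides of it on every plate.

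Marker D was held by most but not all cells. It was at 10 CPM or more in 45 of 60 (75%, 62.1 to 85.3%), namely 11 of 16 cells in the 1-plate experiment, 17 of 24 on Plate1 and 17 of 20 on Plate2. Its level ran from 0 to 591 CPM with a median of 137.4 CPM. Of the 15 cells under the threshold, 11 had 0 reads of D, and the other 4 reached at most 6.16 CPM. The lowest cell above the threshold was at 11.3 CPM.

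Marker E divided the cells more evenly and spanned the widest relative range. It was at 10 CPM or more in 29 of 60 cells (48.3%, 35.2 to 61.6%): 9 of 16, 9 of 24 and 11 of 20 by plate, with overlapping intervals. The median was 6.45 CPM and the highest level 2812 CPM, and 22 cells had 0 reads. Nearest the threshold were cells at 8.65 and 10.7 CPM, and the share depended on where the threshold was set (63.3% at 1 read or more, 30% at 50 CPM or more). The highest cell alone made up 23.95% of the summed CPM of E over the 60 cells, and on Plate1 1 cell made up 84.3% of that plate's sum. For A, B and D the highest cell made up 5.48%, 9.38% and 5.87% of the marker's summed CPM.

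Marker C was listed at 0 in all 60 unstimulated cells, among 92313998 reads, and also in the 178 TNF cells and in the 44 samples outside the cell tables. No sample analysed here had a read of it, so the files do not show that its reads could be counted. Had they been counted, 0 of 60 cells, taken as a limit of 3 cells, would allow a share of up to 5% of cells with a read. The exact interval used for the other markers would reach 5.96%. C enters no further comparison.

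The spread between cells can be set against that of other genes through the squared coefficient of variation (the variance over the squared mean). Marker E had 6.26 in the 1-plate experiment and 8.78 in the other, where 98.6% and 99.4% of genes with a mean of 10 CPM or more had less. The median gene had 0.564 (8479 genes) and 0.463 (8259 genes), and spike-ins, RNA added to every well and scaled here to the cell's spike-in reads, had a median of 0.0579 (7 spike-ins) and 0.0768 (16). Marker A had 0.674 and 0.774, marker B 0.878 and 1.21, and marker D 1.22 and 0.988. All 4 markers thus varied more than the median gene and the median spike-in in both experiments, the spike-ins being those with a mean of 100 reads or more. B of the 1-plate experiment had 0.559 without its highest cell, just under the median gene. Spread falls with level in such data, and a ranking by the excess over that trend in both experiments put E at rank 9, B at 69, A at 114 and D at 138 of 7989 genes. The first ranks went to ENSMUSG00000056399, at 10 CPM or more in 2 cells of the 1-plate experiment and 3 of the other, and ENSMUSG00000022157, in 9 and 14.

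All cells held A and all but 1 held B, so their presence together with other markers follows from these shares. Only for D and E could presence together or apart vary widely. Of the 60 cells, 26 held A, B and D, 19 held A, B, D and E, 9 held A, B and E, 5 held only A and B, and 1, cell 67, held A and E without B. D and E, the markers that some cells lacked, were together in 19 cells, D without E was seen in 26, E without D in 10, and neither in 5. E was at 10 CPM or more in 10 of the 15 cells under 10 CPM of D, against 19 of the 45 cells with D. The same direction was seen in both experiments, 4 of 5 against 5 of 11 cells and 6 of 10 against 14 of 34. Cells are not replicates, so these shares carry no test.

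Graded levels were compared by correlation for each pair of markers. Correlations are Spearman's rho over cells within a plate or experiment, as a description without a p, since cells of a plate share handling and both levels of a cell share its depth. A and B rose together, with rho of 0.64 in the 1-plate experiment, 0.58 on Plate1 and 0.66 on Plate2. The TNF cells of the same plates gave 0.76, 0.79 and 0.77. The pair was thus positive in each of the 6 sets of cells. Within the 14 G1 cells of the 2-plate experiment it was 0.48, below the 0.78 of all 44 cells. Both of these values pool Plate1 and Plate2, which differed in level of A and B, and 0.78 was above the value of either plate.

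A and D ran opposite. Their rho was -0.34 in the 1-plate experiment, -0.52 on Plate1 and -0.30 on Plate2, and it was -0.49 in the 1-plate experiment without the highest cell of each gene. Among TNF cells it was -0.41 and -0.46 on the first 2 of these plates and 0.19 on Plate2. Of the TNF cells of Plate2, 24 of 68 had fewer than 8000 detected genes, against 0 of 51 and 0 of 59 on the others, and their level of A followed the number of detected genes with rho of 0.72. The part of these cells in the different sign was not tested.

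D and E also ran opposite, with -0.42, -0.30 and -0.31 on the 3 plates. The value for the 2-plate experiment was -0.23, and it shrank to -0.15 without the highest cell of each gene and to -0.13 within G1. TNF cells gave -0.60, -0.51 and -0.02. For B and D the sign differed between plates (0.24, -0.16 and -0.13), and A and E were close to 0 or weakly positive (0.20, 0.17 and 0.09). B and E gave -0.19, -0.28 and -0.26 in unstimulated cells and 0.17, -0.02 and 0.11 in TNF cells. Without the highest cell of each gene, B and E of the 1-plate experiment gave 0.11.

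**Figure D2:**
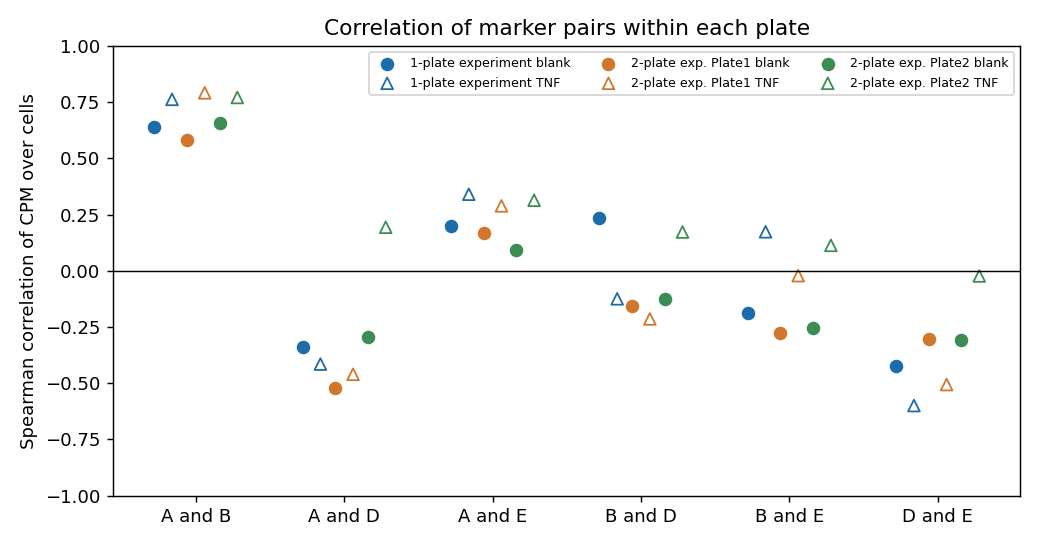
Spearman correlation of CPM over cells (vertical axis) for the 6 pairs of markers, within each plate, for unstimulated (filled circles) and TNF cells (open triangles), with colours for plates. A and B are above 0 in all 6 sets, A with D and D with E are below 0 in all 3 unstimulated sets, and TNF cells of Plate2 stand apart for both.

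The cells with the most E had the least B. This grouping was made after the values were seen, at 500 CPM, in the gap between the highest 5 cells and the next at 430.4 CPM, so it is a description. Cell 87 of Plate1 had 2812 CPM of E and 44.9 CPM of B. Cell 19 of Plate2 had 2221 CPM of E and 140.1 CPM of B. Cell 75 of the 1-plate experiment had 2063 CPM of E and 85.8 CPM of B. Cell 67 of that experiment had 1198 CPM of E and 0 of B, and cell 25 of Plate2 had 924 CPM of E and 127.0 CPM of B. The other 55 cells had 227.4 to 10864 CPM of B with a median of 1693 CPM, so the groups did not overlap in B, and each plate held at least 1 of the 5 cells.

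In these 5 cells marker D was also low, at 0 in 3 of them and at 0.429 and 27.5 CPM in the others, against a median of 165.5 CPM in the other 55. Marker A was not as low, at 273.1 to 2158 CPM against 121.9 to 7077 CPM, so the groups overlapped. The 5 cells had 8477 to 10214 detected genes and were not among the 4 with few genes, and 4 of the 5 were called G2M and 1 G1. Cell 87 was among the cells that the authors called outliers in their response classes, and the other 4 were non-responsive. The separation in B depended on the grouping: with 200 CPM as the limit there were 8 cells, and 29 of the remaining cells had less B than the highest of them. With 1000 CPM as the limit, 1 of the remaining cells, cell 25, had less B.

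The same limit of 500 CPM in TNF cells gave 7 of 178 cells. Their D was low again, at 0 to 43.5 CPM against a median of 226.6 CPM in the other 171. Their B was not, with a median of 525.6 CPM against 546.5 CPM and ranges that overlapped. Apart from E, 21 genes were at 10 CPM or more in all 5 unstimulated cells and in at most 5 of the other 55, by choice. In cells that this choice did not use, the 7 TNF cells held a median of 16 of the 21 genes (6 to 16), and the other 171 TNF cells a median of 1 (up to 17). Low D and these genes were therefore seen with high E in both stimuli, and low B in unstimulated cells.

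**Figure D3:**
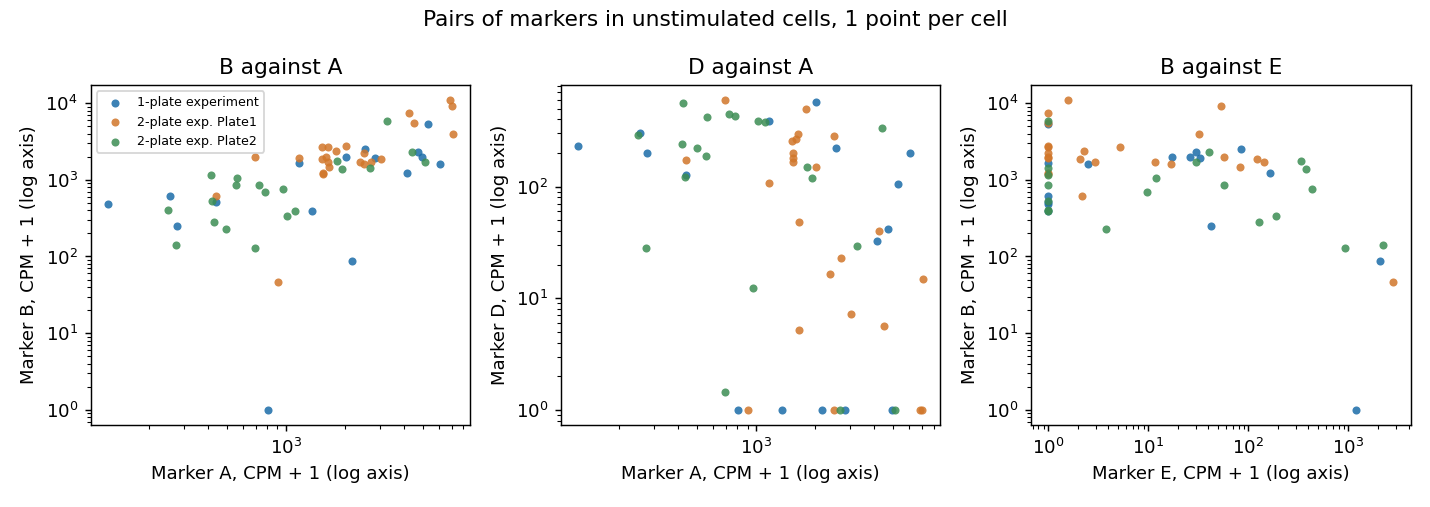
Levels of 2 markers in each of the 60 unstimulated cells (CPM + 1, log axes), coloured by plate: B against A, D against A, and B against E. B rises with A, D is highest at low to middle A, and the 5 cells farthest right in the last panel, at 924 to 2812 CPM of E, lie below all others in B.

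The 15 cells with little D had more A than the rest by their medians, mainly in the 2-plate experiment. Their median A was 2668 CPM against 1527 CPM in the 45 cells with D. In the 2-plate experiment the medians were 2853 and 1526 CPM, and in the 1-plate experiment 2158 and 2010 CPM. Median B differed in direction between the experiments, at 1804 against 1506 CPM in the 2-plate experiment and at 390.5 against 1622 CPM in the 1-plate experiment. The ranges overlapped for both genes.

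Genes whose level followed a marker were sought among the 9275 genes that reached 10 CPM in 3 or more unstimulated cells of each experiment, as those with rho of 0.5 or more, or -0.5 or less, in both experiments. Marker D had the most, with 196 genes rising and 44 falling with it. Marker A had 41 and 50, marker B 33 and 3, and marker E 23 and 42. Without the 4 cells with few genes the counts were higher (252 and 68 for D, 56 and 107 for A, 38 and 11 for B, 38 and 55 for E). The genes rising with A and with B shared 13, which is 31.7% of the A list and 39.4% of the B list. A and B rose together in the same cells, so some sharing follows from that. Those rising with D shared 0 with any of the other 3 lists, and A and E shared 2. Lists this short among 9275 genes can be expected to share few, so a count of 0 is not read as a separation. In the 2-plate experiment rho was taken over its 44 cells together, though its plates differed in level of A and B. For A with B it was 0.78 over these cells, against 0.58 on Plate1 and 0.66 on Plate2. The part of plate differences in the lists was not tested.

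The closest genes are given by identifier, with rho in the 1-plate and then the 2-plate experiment (both plates together). ENSMUSG00000025877 (0.74, 0.72) and ENSMUSG00000024681 (0.77, 0.70) followed A, and ENSMUSG00000056737 (-0.68, -0.73) ran most opposite to it. ENSMUSG00000057729 (0.92, 0.80) was closest to B, ahead of ENSMUSG00000029322 (0.70, 0.72). ENSMUSG00000057729 was, like B, at 10 CPM or more in 59 of 60 cells. ENSMUSG00000015568 (0.86, 0.85) and ENSMUSG00000004207 (0.81, 0.83) followed D, and ENSMUSG00000028528 (-0.72, -0.73) ran opposite. ENSMUSG00000025491 (0.81, 0.76) and ENSMUSG00000105652 (0.67, 0.72) followed E, and ENSMUSG00000052459 (-0.75, -0.64) ran opposite.

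TNF cells, which took no part in the choice of these genes, held much of the same order. Genes rising with D had a median rho with D of 0.62, 0.64 and 0.60 among TNF cells of the 1-plate experiment, Plate1 and Plate2, where all 9275 genes had -0.05, -0.07 and 0.26. Genes rising with E had 0.56, 0.51 and 0.44, where all genes had 0.03, 0.02 and 0.21. Those of A had 0.43, 0.43 and 0.57 against 0.06, 0.05 and 0.40, and those of B 0.34, 0.39 and 0.48 against 0.06, 0.03 and 0.30. Median rho lay above that of all genes for every list on every plate, and was nearest to it for A and B on Plate2. Genes falling with a marker did not keep their sign on Plate2: those of A had -0.53 and -0.44 on the other plates and 0.13 there, and those of D -0.43, -0.49 and 0.02. The unstimulated and TNF cells share plates, so handling common to a plate is part of these values.

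**Figure D4:**
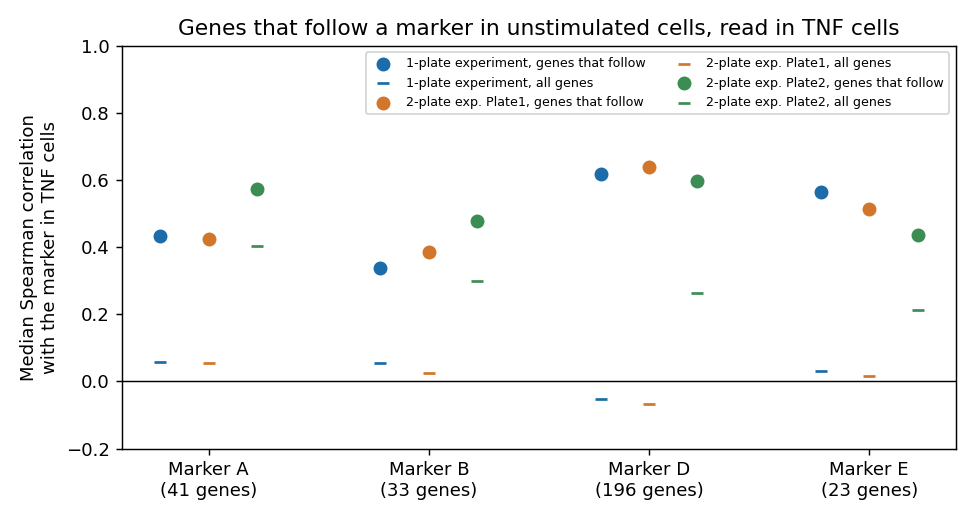
Median Spearman correlation with a marker among TNF cells (vertical axis) of the genes that rose with that marker in unstimulated cells (points) and of all 9275 genes (dashes), by plate. Points lie above the dash of the same plate for all 4 markers, from 0.34 to 0.64, and dashes of Plate2 are the highest.

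By the authors' cell cycle calls, D was lowest in S cells in both experiments, while its order between G1 and G2M differed. In the 2-plate experiment median D was 179.1 CPM in the 25 G2M cells, 37.8 CPM in the 14 G1 cells and 15.6 CPM in the 5 S cells. In the 1-plate experiment it was 115.8 CPM in 10 G2M cells, 200.9 CPM in 3 G1 cells and 40.5 CPM in 3 S cells. Over all cells D was at 10 CPM or more in 27 of 35 G2M, 13 of 17 G1 and 5 of 8 S cells, and E in 17, 7 and 5 of them. Median A in G2M, G1 and S was 1540, 1582 and 2367 CPM in the 2-plate experiment, and 2084, 4121 and 1352 CPM in the other. Median B was 1392, 1698 and 1935 CPM, and 1792, 1210 and 390.5 CPM, so A and B had no common order of phases in the 2 experiments. In the 2-plate experiment D fell as the authors' S score rose (rho -0.50, with -0.56 on Plate1 and -0.50 on Plate2), and A rose with it (0.43). In the 1-plate experiment these values were -0.08 and 0.14. The S score thus moved with the opposite course of A and D in 1 experiment of the 2, and its part in it was not tested.

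Spike-in share, which is high where a cell gave little RNA, ran against A and B in the 2-plate experiment (rho -0.44 and -0.48) and with them in the 1-plate experiment (0.52 and 0.41). The part of RNA content in the correlation of A with B was not tested. Detected genes gave 0.29 and 0.23 with A and B in the 2-plate experiment, and -0.19 and 0.09 in the 1-plate experiment.

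The 5 unstimulated cells called oscillatory, all in the 2-plate experiment, had lower medians than the 34 non-responsive cells of that experiment, with overlapping ranges. Median A was 962 against 1638 CPM, median B 853 against 1696 CPM, median D 11.3 against 148.6 CPM and median E 0 against 5.73 CPM. The 2 oscillatory cells of Plate1 had 3038 and 2488 CPM of A, above that plate's median of 1718 CPM. They had 1883 and 2217 CPM of B, around that plate's median of 1959 CPM. The other 3 lay on Plate2, the plate with the lowest medians of A and B. These differences, and the part of plate in them, were not tested. Over the 5 oscillatory cells A ran from 418.8 to 3038 CPM and B from 527.5 to 2217 CPM, inside the ranges of the 47 non-responsive cells. D was at 10 CPM or more in 3 of the 5 and E in 2 of the 5, against 27 and 16 of the 34.

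Against TNF cells, the summed unstimulated cells held more A, B and E and less D in both experiments. With 2 experiments no marker passed the test. With the cell highest in E left out of both stimuli, the direction for E turned on Plate1 only. Cells are numbered by well, and unstimulated cells were numbers 65 to 95 of the 1-plate experiment, 67 to 90 of Plate1 and 4 to 25 of Plate2. The part of well position in these differences was not tested. Counts were summed over cells by experiment and stimulus and compared with edgeR's quasi-likelihood test. Its p-values set a difference against its spread between experiments. With 1 residual degree of freedom that spread was largely estimated from all genes together (4.64 prior degrees of freedom), not from the marker alone. The spread may be technical, since separate animals or cultures are not stated. Marker D was at 151.8 and 194.7 CPM in the summed unstimulated cells of the 1-plate and 2-plate experiments, and at 351.3 and 329.8 CPM in TNF cells. In the fit over both experiments D was higher with TNF by 1.002 on the log2 scale (SE 0.16), with an edgeR adjusted p of 0.092. The sum was higher with TNF on each plate, least on Plate2 (240.4 and 331.4 CPM). The median cell did not follow on Plate2, where it had 203.7 CPM of D when unstimulated and 90.3 CPM with TNF, while it had 115.8 and 242.9 CPM in the 1-plate experiment and 77.3 and 315.4 CPM on Plate1. On Plate2, 24 of 68 TNF cells had fewer than 8000 detected genes, against 2 of 20 unstimulated cells. Among these TNF cells D followed the number of detected genes with rho of 0.50, and the part of this was not tested. The share of cells with D was 68.8% against 90.2% in the 1-plate experiment, 70.8% against 96.6% on Plate1, and 85% against 85.3% on Plate2.

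Marker A was at 2712 and 2046 CPM in unstimulated and at 925 and 1301 CPM in TNF cells (log2 difference, TNF minus unstimulated, -1.09, SE 0.25, edgeR adjusted p 0.21). Marker B was at 1475 and 1970 CPM against 628 and 1263 CPM (-0.92, SE 0.19, edgeR adjusted p 0.18). Marker E was at 219.2 and 148.8 CPM against 125.7 and 78.8 CPM (-0.84, SE 0.14, edgeR adjusted p 0.11), and its share of cells was 48.3% against 35.4%. The sums of A and B were lower in TNF cells on each plate, and so were the medians over cells. Among TNF cells of Plate2, A and B followed the number of detected genes (rho 0.72 and 0.48), and the part of this was not tested. A sum does not tell fewer cells with a gene from less RNA per cell, but A and B were at 10 CPM or more in 174 and 173 of the 178 TNF cells, close to the shares in unstimulated cells. The sum of E was also lower with TNF on each plate, but 1 cell held 56.3% of the unstimulated reads of E in the 1-plate experiment (cell 75) and 72.01% on Plate1 (cell 87). Without cell 75 the unstimulated sum of the 1-plate experiment was at 102.0 CPM, below the 125.7 CPM of TNF cells, and without cell 87 that of Plate1 was at 24.1 CPM, below 78.8 CPM. These TNF sums kept their own highest cell, which held 49.3% and 28.4% of their reads of E. On Plate2 the unstimulated sum without its highest cell was at 136.1 CPM, above 78.7 CPM. With the cell highest in E left out of both stimuli, E was at 102.0 against 65.7 CPM in the 1-plate experiment, 24.1 against 56.9 CPM on Plate1 and 136.1 against 45.8 CPM on Plate2, and the fit over both experiments gave -0.61 (SE 0.17, edgeR adjusted p 0.32).

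By this test 0 of the 4 markers tested were called, where 0.446% of 15479 genes were (64 rose and 5 fell), while all 4 had an unadjusted p under 0.05. The call depended on the tool and filter. DESeq2 called all 4 (adjusted p at most 0.000647, with 2.72% of 26130 genes called), and so did edgeR without a filter on low counts (adjusted p at most 0.0289, with 1.4% called). With a stricter filter, which kept genes that reached 10 CPM in 50% of the sums, edgeR called B, D and E, and A had an adjusted p of 0.0554 (3.46% of 8619 genes called). Without Plate2, D was called at an edgeR adjusted p of 0.0312. Without Plate1 no marker was called, and D had an edgeR adjusted p of 0.319. Nor was any marker called without an experiment term, where D had an edgeR adjusted p of 0.662. No setting of the fit changed the sign of a marker, though leaving the highest cell out of both stimuli turned the direction of E on Plate1, as given above.

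**Figure D5:**
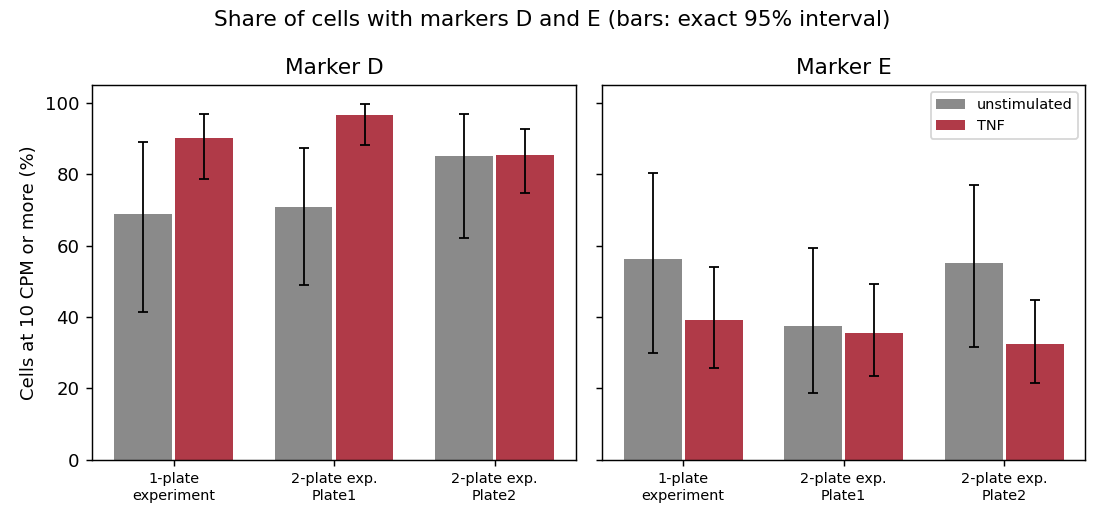
Share of cells at 10 CPM or more of markers D and E (bars, %, with exact 95% intervals as whiskers), for unstimulated and TNF cells of each plate. D is lower in unstimulated cells on 2 plates and at 85% and 85.3% on Plate2, and intervals for E overlap on every plate.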

How the data were processed

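The authors' deposited tables hold read counts per gene identifier for each cell; per the submitters' processing notes, SAMtools and featureCounts of Subread 1.5.0 were used. For aligner, genome build, annotation and strand setting the sources used here give nothing, so overlapping, antisense and near-identical genes could not be told apart. The authors' deposited cell tables give stimulus, response class, phase and phase scores as a fraction of 1; no source read for this work says how these were assigned.

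Count columns were tied to samples by well and plate in the labels; 357 columns that match no sample were not used, and the 44 samples that the cell tables do not list were compared with nothing. The 92 spike-ins were kept out of library sizes. Each cell is 1 sample and cells are not replicates; the experiment was the replicate (n = 2). The 4 sums by experiment and stimulus ranged from 15208545 to 200524120 reads and left 1 residual degree of freedom. They were compared with edgeR 4.0.16 in R 4.3.3 (default filter, TMM factors, experiment as a term, quasi-likelihood test, two-sided, Benjamini-Hochberg over all genes, 0.05). SE is the absolute log2 difference over the square root of F. DESeq2 1.42.0, other filters and scalings, cells left out, thinning to 500000 reads (57 cells kept, 3 too shallow) and other thresholds were tried. On simulated counts of 15479 genes (5 draws) the fit recovered 57.8% of 4-fold and 68% of 8-fold changes, 0 in the wrong direction, with 10.0% of calls false, more than the 0.05 set. Changes as small as those of the markers (the largest was A, log2 difference -1.09) were not simulated, so how often the fit would call them is not known. Correlations used SciPy 1.17.1.

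The cells, markers and lists were chosen with earlier results of these data known. The 13 lists (134 symbols), symbol pairs and symbol-based anchors for named genes could not be matched to identifiers and were not analysed here. The rule for named genes was applied to the 5 marker identifiers: the genes with the highest correlation, ranked by the weaker experiment, and the most variable genes. Those named were limited to 2 rising identifiers per marker, the most opposite identifier for A, D and E, and the 2 most variable genes. Predicted, pseudo- and sex-linked genes could not be left out. Text on genes that follow a marker, and on cells highest in E, was added after the data were seen.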

Additional observations from a re-analysis of the deposited data

Results flagged for a closer look

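Outside the cells in the authors' tables, 44 of the 282 samples held 1805 to 1130586 reads (median 115918), and marker B was at 10 CPM or more in 32 of them. This drew attention because these samples enter no comparison and have no stimulus entry. Marker A was at that level in 39, D in 22, E in 17 and C in 0 of the 44 samples.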

How the results depend on the processing

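Of the values recomputed under another setting, 130 stayed within the limits set for no change and 51 moved, and 12 tests of markers passed the threshold that they had missed; no fit changed the sign of a marker against TNF. Cells below 8000 genes, thinning and single plates left the shares of cells with a marker within their intervals. Without the 1-plate experiment, B and A with B reached 100%. At 50 CPM or more, D, A with D and B with D were at 58.3%, E and A with E at 30%, B with E at 26.7% and D with E at 11.7%; at 1 read or more, E and A with E were at 63.3%, B with E at 61.7% and D with E at 50%. 12 correlations moved: A with B in G1 cells of the 2-plate experiment (0.48), A with D of the 1-plate experiment without the highest cells (-0.49), and D with E after thinning (-0.34, 1-plate), without the highest cells (-0.15, 2-plate) and in G1 (-0.13, 2-plate). The other 7 were A with E after thinning (0.06, 1-plate) and in G1 (-0.28, 2-plate), B with D in G1 (0.13, 2-plate, against -0.21), and B with E after thinning (-0.25, 1-plate), without the highest cells (0.11, 1-plate, and -0.26, 2-plate) and in G1 (-0.73, 2-plate). With spike-in scaling the squared coefficient of variation was 1.20 for A and 2.05 for B in the 2-plate, and 1.16 for B and 1.65 for D in the 1-plate experiment; B there had 0.559 without its highest cell. A limit of 200 CPM of E took 8 cells, with 29 others lower in B, and 1000 CPM left 1 other lower in B. With a correlation of 0.6 in both experiments, 77 genes rose with D, 12 with A, 9 with B and 3 with E.

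Genes called between TNF and unstimulated cells were 69, against 711 with DESeq2, 367 without a filter, 298 with a stricter filter, 177 without Plate2, 1 without Plate1 and 0 without an experiment term (880 genes had an unadjusted p under 0.05 there); the cause was not tested. Sums per plate with the plate as a replicate block called 103 genes and none of the 4 markers (D had an edgeR adjusted p of 0.0627, and B 0.104). The replicate numbers of the labels only name wells and pair no cells. With 2 experiments, 1 cannot be left out of the fit. Leaving the cell highest in E out of each plate and stimulus, chosen after seeing the data, gave 50 genes called and none of the 4 markers. For marker C the tables show 0 reads in every sample, and depth sets no limit where reads may not have been counted.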
